A study of Arabidopsis thaliana with 33 samples.

Results

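ATSPS4F, SWEET11 and TMT1 are the 3 genes described here. They make sucrose, let it out of leaf cells and load sugar into the vacuole, in that order. They were taken by name from the 6853 genes of Arabidopsis thaliana that have a probe set naming 1 gene, with earlier results of these data known. TMT1 and SWEET11 were chosen by their measured difference between midday and midnight values, so that difference is given for all 3 genes as a description with no test. Which values led to the choice of ATSPS4F is not recorded, so its tests are not independent of that choice either.

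The samples were leaves of Col-0 plants, the youngest ones fully expanded, harvested 35 days after germination. The plants grew in chambers with 10 h of light and 14 h of darkness, at 370 ppm CO2 (ambient) or 750 ppm CO2 (elevated). They were fed 6 mM NH4NO3 (ample nitrogen) or 0.25 mM NH4NO3 (limiting nitrogen), and leaves were cut at midday or at midnight. Crossing the 3 factors gives 8 groups. The groups at ambient CO2 hold 4 arrays for ample nitrogen at midday, 5 for ample nitrogen at midnight, and 4 at each time for limiting nitrogen. The groups at elevated CO2 hold 3 arrays for ample nitrogen at midday, 5 for ample nitrogen at midnight, and 4 at each time for limiting nitrogen. That is 15 midday and 18 midnight arrays, each an Affymetrix expression array of total RNA, and their number limits the precision of every value. Whether the replicates were single plants, pools or different chambers is not stated in the labels, and each p-value therefore rests on the spread among these arrays alone, which may be technical.

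Values are log2 expression relative to the median of the same array, so a difference of 1 is a 2-fold difference, and a shift common to most genes does not show. Of 10 mesophyll markers 4 were measured, and all 4 had high means over the 33 arrays: 6.11 for RCA, 5.07 for SBPASE, 5.54 for PRK and 5.04 for PSAN. The guard cell marker FMA had a mean of -1.91, and the other 5 guard cell markers, the 8 phloem, 5 epidermis, 5 root and 5 flower markers had no single-gene probe set, so the share of those cells could not be read. Replicate 4 of ambient CO2 with ample nitrogen at midnight stood apart from its group, with a median correlation of 0.894 to the other arrays of that group. Its control probe sets read higher near the 3′ end than near the 5′ end by 4.41 on the log2 scale, a sign of RNA quality. Replicate 1 of elevated CO2 with limiting nitrogen at midnight had a median correlation of 0.941, and the other 31 arrays lay between 0.943 and 0.984. These 2 arrays, with the lowest correlations, are called the arrays that stood apart. Replicate 1 lay only just under the next array, and its control probe sets differed by an ordinary 1.72 between the 3′ and 5′ ends.

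In a photosynthesising leaf, sucrose is built in the cytosol from UDP-glucose and fructose 6-phosphate, and sucrose phosphate synthase catalyses the step that commits carbon to it. Sucrose leaves phloem parenchyma cells through SWEET proteins, which let sugar pass down its gradient, and is then taken up by proton symporters for transport in the phloem. Sugar that is not exported can be kept in the vacuole, where tonoplast monosaccharide transporters import it in exchange for protons, and starch stored by day supplies sugar at night.

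ATSPS4F (AT4G10120), which encodes a sucrose phosphate synthase, had a mean of 2.99 over the 33 arrays, above 93.4% of the probe sets. At midday with ample nitrogen its 4 ambient arrays read 3.05, 3.26, 2.79 and 2.97 on the log2 scale, and its 3 elevated arrays read 2.06, 2.35 and 2.79. With limiting nitrogen the midday values were 2.322, 2.593, 2.439 and 2.101 at ambient CO2, and 2.619, 2.731, 1.674 and 2.444 at elevated CO2. The ambient group with ample nitrogen was thus the highest of the 4 midday groups, with no array below any array of the elevated group at the same nitrogen supply, although its lowest value, 2.792, barely exceeded the highest elevated value, 2.786. At midnight with ample nitrogen the 5 ambient arrays read 3.41, 3.36, 3.82, 4.28 and 3.49, and the 5 elevated arrays read 3.28, 1.80, 3.06, 3.16 and 2.11. With limiting nitrogen the midnight values were 4.24, 3.53, 3.93 and 3.76 at ambient CO2, and 2.54, 3.68, 3.67 and 3.35 at elevated CO2. All elevated arrays lay below all ambient arrays at ample nitrogen and midnight, while at limiting nitrogen and midnight the groups overlapped. The highest ambient midnight value at ample nitrogen, 4.28, and the lowest elevated midnight value at limiting nitrogen, 2.54, came from the 2 arrays that stood apart.

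SWEET11 (AT3G48740), a sucrose transporter of the plasma membrane that lets sucrose out of phloem parenchyma, had a mean of 3.70, above 96.7% of the probe sets. At midday with ample nitrogen it read 2.87, 2.89, 2.46 and 3.10 at ambient CO2, and 2.37, 2.72 and 2.73 at elevated CO2. With limiting nitrogen the midday arrays read 2.62, 3.23, 3.01 and 2.80 at ambient CO2, and 2.77, 3.08, 2.64 and 2.86 at elevated CO2. These 4 midday groups all overlapped one another. At midnight with ample nitrogen the arrays read 4.60, 4.20, 4.23, 3.77 and 4.57 at ambient CO2, and 4.72, 4.37, 4.23, 4.69 and 4.17 at elevated CO2. With limiting nitrogen the midnight arrays read 4.67, 4.27, 4.59 and 4.54 at ambient CO2, and 4.31, 4.63, 4.67 and 4.71 at elevated CO2. The midnight groups overlapped one another too, and all of them lay above every midday array.

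TMT1 (AT1G20840), a tonoplast monosaccharide transporter, had a mean of 1.07, above 72.9% of the probe sets. At midday with ample nitrogen it read -0.46, -0.30, -0.15 and -0.05 at ambient CO2, and 0.06, 0.21 and -0.07 at elevated CO2. With limiting nitrogen the midday arrays read -0.07, -0.40, 0.22 and 0.01 at ambient CO2, and 0.25, -0.38, 0.04 and 0.13 at elevated CO2. All 4 midday groups therefore lay close to the array median and overlapped. At midnight with ample nitrogen the arrays read 2.34, 2.42, 2.15, 1.79 and 2.37 at ambient CO2, and 2.59, 1.71, 2.07, 2.22 and 1.77 at elevated CO2. With limiting nitrogen the midnight arrays read 1.867, 2.049, 2.102 and 2.077 at ambient CO2, and 1.582, 1.662, 1.766 and 1.661 at elevated CO2. The last of these groups was the lowest at midnight, and none of its arrays reached the ambient arrays at the same nitrogen supply. For SWEET11 and TMT1, the lowest array of the group with ambient CO2 and ample nitrogen at midnight, 3.77 and 1.79, was the replicate that stood apart.

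**Figure D1:**
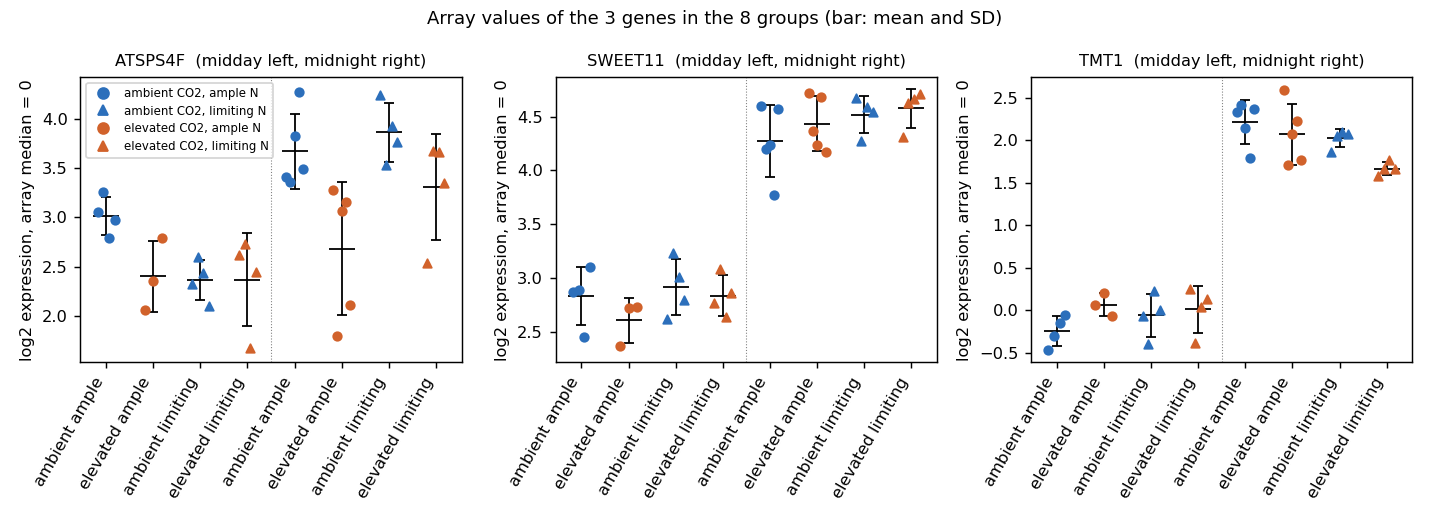
Log2 expression relative to the array median (vertical axes) of ATSPS4F, SWEET11 and TMT1 in each of the 33 arrays, by group (horizontal axes), midday groups left and midnight groups right of the dotted line. Points are arrays, bars are the group mean and SD, colour gives CO2 and shape gives nitrogen. The SWEET11 and TMT1 midday arrays, at most 3.23 and 0.25, all sit below the midnight arrays, at least 3.77 and 1.58.

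The order of the 8 group means differed among the genes. For ATSPS4F it ran from 3.87 ± 0.30 (SD, n = 4) at ambient CO2 with limiting nitrogen at midnight down to 2.36 ± 0.21 (SD, n = 4) at the same CO2 and nitrogen at midday, and every group overlapped the next in the order. The group at elevated CO2 with ample nitrogen at midnight, 2.68 ± 0.68 (SD, n = 5), stood below a midday group, that at ambient CO2 with ample nitrogen, 3.02 ± 0.19 (SD, n = 4). For SWEET11 the midnight means ran from 4.58 ± 0.18 (SD, n = 4) at elevated CO2 with limiting nitrogen to 4.27 ± 0.34 (SD, n = 5) at ambient CO2 with ample nitrogen. A gap of 1.36 then separated them from the midday means, and it was the single step in that order at which neighbouring groups did not overlap. For TMT1 the midnight means ran from 2.21 ± 0.26 (SD, n = 5) at ambient CO2 with ample nitrogen to 1.67 ± 0.08 (SD, n = 4) at elevated CO2 with limiting nitrogen. The steps above and below that last group, of 0.36 and 1.60, were the ones without overlap in the order of TMT1. The SD between replicates, pooled over groups, was 0.44 for ATSPS4F, 0.25 for SWEET11 and 0.24 for TMT1, against a median of 0.28 over all probe sets. For ATSPS4F the group SDs were 0.19 to 0.38 at ambient CO2 and 0.36 to 0.68 at elevated CO2. The SEs and tests below use a single spread per gene for all groups.

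All 3 genes had higher midnight than midday means in all 4 conditions. Averaged over the conditions, TMT1 was 2.05 lower at midday on the log2 scale (SE 0.09), a 4.14-fold difference, SWEET11 was 1.65 lower (SE 0.09, 3.15-fold), and ATSPS4F was 0.85 lower (SE 0.14, 1.80-fold). These values chose 2 of the genes and carry no test. In bulk leaf tissue, fewer cells of a type and less RNA per cell cannot be told apart. The midday arrays of SWEET11 ran from 2.37 to 3.23 with a median of 2.80, and its midnight arrays from 3.77 to 4.72 with a median of 4.56. The midday arrays of TMT1 ran from -0.46 to 0.25 with a median of -0.05, and its midnight arrays from 1.58 to 2.59 with a median of 2.06. All midday arrays lay below all midnight arrays for these 2 genes, as they did for 3.69% of the 12772 probe sets. ATSPS4F ran from 1.67 to 3.26 at midday with a median of 2.59, and from 1.80 to 4.28 at midnight with a median of 3.45, so its times overlapped.

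In each condition the difference between times had the same sign for all 3 genes, and no test of whether its size depended on CO2 or nitrogen passed for any of them, the smallest adjusted p being 0.593 in limma. For TMT1 the midday minus midnight log2 difference was -2.45 at ambient CO2 with ample nitrogen, -2.08 at ambient CO2 with limiting nitrogen, -2.01 at elevated CO2 with ample nitrogen and -1.66 at elevated CO2 with limiting nitrogen, with SEs of 0.16 to 0.18. For SWEET11 it was -1.44, -1.60, -1.83 and -1.74 in the same order of conditions, with SEs of 0.17 to 0.18. Neither gene had overlapping times in any condition, a pattern that 5.92% of the probe sets shared in the same direction. For ATSPS4F the difference was -0.65 (SE 0.28), -1.50 (SE 0.29), -0.28 (SE 0.30) and -0.94 (SE 0.29) in that order, and its midday and midnight arrays overlapped in both conditions at elevated CO2. At elevated CO2 with ample nitrogen the value depended on single arrays, from -0.11 without midday replicate 1 to -0.50 without midnight replicate 2. The overlap with limiting nitrogen came from the midnight array at 2.54, while the other midnight arrays of that group read 3.35 or more. RNA quality moved with time: group means of that 3′ excess were 1.73 to 1.85 at midday and 1.92 to 2.54 at midnight. The mean of 2.54 belongs to the group that holds the array at 4.41, and the other midnight groups had 1.92 to 2.13. Mesophyll markers were higher at midday, by 1.23 for PSAN, 0.64 for SBPASE, 0.55 for RCA and 0.42 for PRK. All of them were called in limma, the largest adjusted p being 2.93e-05. The guard cell marker FMA was lower at midday by 0.25 (adjusted p 0.0462 in limma). The 37 spike-in control probe sets had midday minus midnight differences of -0.75 to 0.99, with a median of 0.18, and 23 were higher at midday. The part of these shifts in the time differences of the 3 genes was not tested. The share of all probe sets called between the times, at a Benjamini-Hochberg adjusted p under 0.05 in limma, was 64.5%.

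Elevated CO2 went with less ATSPS4F transcript. Averaged over the 4 conditions, ATSPS4F was 0.54 lower at elevated CO2 on the log2 scale (SE 0.14, 95% interval -0.84 to -0.25, 1.46-fold), with an adjusted p of 0.00901 in limma, as one of the 21.3% of probe sets called in this average. Its means were lower at elevated CO2 in 3 of the 4 conditions. The decrease was 0.99 (SE 0.26) at ample nitrogen and midnight, 0.62 (SE 0.31) at ample nitrogen and midday, and 0.56 (SE 0.29) at limiting nitrogen and midnight. The last of these was 0.30 without replicate 1 of elevated CO2 at limiting nitrogen and midnight. The decrease at ample nitrogen and midnight was uneven among the elevated arrays. Replicates 2 and 5 read 1.80 and 2.11, and the other elevated arrays of that condition read 3.06 or more, against a lowest ambient value of 3.36. At limiting nitrogen and midday the difference was 0.00 (SE 0.29). In none of these single conditions did ATSPS4F pass, with adjusted p of 0.0921, 0.683, 0.312 and 0.999 in limma in the same order. The share of all probe sets called in these conditions was 0%, 0%, 0.0313% and 0%. The groups without overlap, ample nitrogen at midnight and at midday, shared that pattern with 1.21% and 7.17% of the probe sets in the same direction.

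Over both nitrogen supplies, the CO2 difference of ATSPS4F was -0.78 at midnight (SE 0.20, adjusted p 0.0136 in limma), where 13.4% of the probe sets were called, and -0.31 at midday (SE 0.21, adjusted p 0.491 in limma), where 1.34% were. The test of the difference between the times gave 0.47 (SE 0.29) with an adjusted p of 0.913 in limma, and the test of the difference between nitrogen supplies gave 0.53 (SE 0.29) with an adjusted p of 0.999, and both tests called 0% of the probe sets, so neither dependence was shown. With either array that stood apart left out, the averaged CO2 effect of ATSPS4F was -0.50 or -0.48, and with both left out it was -0.44 (SE 0.13, adjusted p 0.0227 in limma). The midnight value passed in limma in 32 of the 33 fits with 1 array left out. It was -0.65 with an adjusted p of 0.0571 without replicate 1 of elevated CO2, limiting nitrogen and midnight, and -0.57 with an adjusted p of 0.0872 without both arrays. In a limma fit to the midnight arrays alone it was -0.78 with an adjusted p of 0.0523. At ample nitrogen and midnight the value passed in 2 of the 33 limma fits with 1 array left out. The adjusted p was 0.0379 without replicate 2 of ambient CO2, ample nitrogen and midnight. It was 0.0427 without replicate 1 of elevated CO2, limiting nitrogen and midnight. Over the 33 fits this value ran from -1.14 to -0.77, with a limma adjusted p of up to 0.252. Without replicate 4 of ambient CO2, ample nitrogen and midnight it was -0.84 (limma adjusted p 0.24). Without both arrays that stood apart it was also -0.84 (0.114). Mesophyll markers moved the same way in the averaged CO2 effect, with PRK lower by 0.36 and SBPASE lower by 0.44 (limma adjusted p 0.00263 and 0.00518), and RCA and PSAN at -0.19 and -0.16 (0.0749 and 0.0732). Their part in the result for ATSPS4F was not tested.

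SWEET11 and TMT1 did not pass for CO2 in any condition or average tested. The averaged CO2 effect on SWEET11 was -0.02 on the log2 scale (SE 0.09), with a 95% interval of -0.20 to 0.16. For TMT1 it was -0.03 (SE 0.09), with an interval of -0.20 to 0.15. The adjusted p of these averages was 0.893 and 0.842 in limma, and the intervals leave room for differences of either sign within those bounds. For TMT1 the sign differed between times, at 0.19 (SE 0.13) over both nitrogen supplies at midday and -0.25 (SE 0.12) at midnight. The test of that difference gave 0.44 (SE 0.17), with an unadjusted p of 0.0154 and an adjusted p of 0.818 in limma. No probe set passed that test in limma, and 695 of the 12772 had an unadjusted p under 0.05. At limiting nitrogen and midnight TMT1 was lower by 0.36 at elevated CO2 (SE 0.17, adjusted p 0.275 in limma), with no overlap between the groups, which held for 6.01% of probe sets in that direction.

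**Figure D2:**
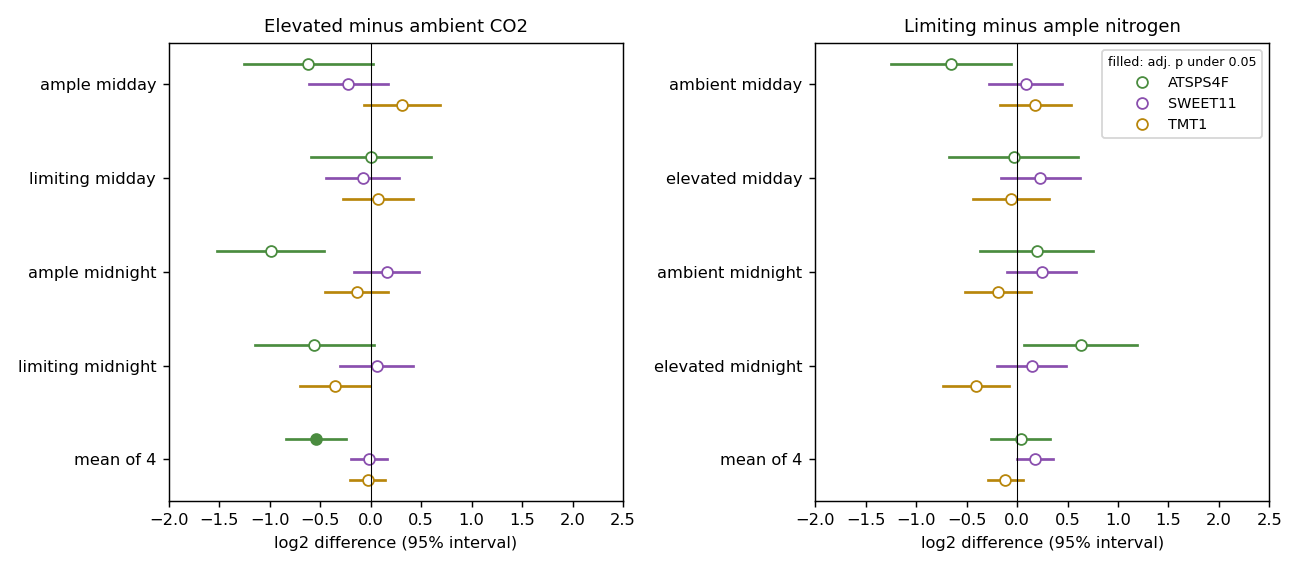
Log2 differences (horizontal axes) of ATSPS4F, SWEET11 and TMT1 between elevated and ambient CO2 (left) and between limiting and ample nitrogen (right), in each of the 4 conditions and as their mean, with 95% intervals from limma. Filled points have an adjusted p under 0.05, which holds for the mean CO2 effect on ATSPS4F, at -0.54.

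Nitrogen supply gave no call for the 3 genes. Averaged over the 4 conditions, limiting minus ample nitrogen was 0.03 for ATSPS4F on the log2 scale (SE 0.14, 95% interval -0.26 to 0.33). It was 0.18 for SWEET11 (SE 0.09) and -0.12 for TMT1 (SE 0.09). The adjusted p was 0.949, 0.380 and 0.589 in limma, in an average in which 1.41% of the probe sets were called. In the single conditions the shares called were 0.00783% at ambient CO2 and midday, 0.345% at ambient CO2 and midnight, 0.0548% at elevated CO2 and midday, and 0.164% at elevated CO2 and midnight. The nitrogen effect on ATSPS4F was -0.65 (SE 0.29) at ambient CO2 and midday, where the groups did not overlap, as for 2.51% of probe sets in that direction. It was 0.63 (SE 0.28) at elevated CO2 and midnight, where they did overlap. The test of whether the nitrogen effect on ATSPS4F differed between times gave -0.75 (SE 0.29), with an unadjusted p of 0.0139 and an adjusted p of 0.593 in limma, in a test that called 0.102% of the probe sets. TMT1 at elevated CO2 and midnight was 0.41 lower under limiting nitrogen (SE 0.16, adjusted p 0.545 in limma).

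Other genes of sucrose metabolism and sugar transport were taken from 8 lists of 102 loci, of which 18 had a single-gene probe set, 15 of them besides the 3 genes. The lists of sucrose proton symporters, plastid exporters, and trehalose phosphate and SnRK1 signalling had no measured gene. Between midday and midnight 11 of the 15 passed in limma, 7 higher and 4 lower at midday. Of all probe sets 64.5% passed, 33.4% higher and 31.1% lower. The median of their midday minus midnight log2 differences was 0.18, and that of all probe sets 0.02.

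Among the vacuolar sugar transporters, 3 of 4 besides TMT1 were higher at midday and 1 did not pass, the reverse of the order of TMT1. TMT2 and SFP2 were among the dimmest 30% of probe sets, with means of -0.94 and -1.42 over the 33 arrays. TMT2, which encodes a second tonoplast monosaccharide transporter, was 1.03 higher at midday (SE 0.12, 2.05-fold), with an adjusted p of 5.88e-09 in limma. Its midday arrays ran from -0.98 to 0.05 with a median of -0.33, and its midnight arrays from -2.47 to -0.85 with a median of -1.35. TMT2 differed between times without overlap in each of the 4 conditions, a pattern that 7.52% of the probe sets shared in the same direction, although its ranges over all midday and all midnight arrays overlapped. SFP2, a sugar porter family gene, was 1.88 higher at midday (SE 0.13, adjusted p 8.80e-14 in limma), and the related SFP1 was 0.51 higher (SE 0.11, adjusted p 0.000177). AT5G17010 of that list did not pass, at 0.10 (SE 0.10, adjusted p 0.388 in limma).

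Among the SWEET transporters besides SWEET11, 2 of 5 were higher at midday, 1 was lower and 2 did not pass. SWEET17, a fructose transporter of the tonoplast, was 1.58 higher at midday (SE 0.16, 2.98-fold, adjusted p 3.63e-10 in limma), with midday arrays from 1.36 to 2.85 and midnight arrays from -0.10 to 1.76. SWEET13, a sucrose transporter like SWEET11, was 1.43 higher at midday (SE 0.20, 2.69-fold, adjusted p 4.27e-07 in limma), opposite to SWEET11. SWEET4 was 0.75 lower at midday (SE 0.18, adjusted p 0.000441 in limma). SWEET13 and SWEET4 were also among the dimmest 30%, with means of -1.39 and -1.16. SWEET1 and SWEET2 had differences of 0.18 and 0.02.

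Among the 3 sucrose synthesis loci besides ATSPS4F, 2 were higher and 1 was lower at midday. F2KP, which makes and breaks down fructose 2,6-bisphosphate, a regulator of sucrose synthesis, was 0.55 lower at midday (SE 0.09, adjusted p 3.66e-06 in limma), in the direction of ATSPS4F. AT2G35840 and AT5G42740 of that list were 0.41 (SE 0.08) and 0.61 (SE 0.09) higher, with adjusted p of 5.95e-05 and 5.62e-07 in limma. On the remaining lists, AT5G61520, the 1 measured locus among the hexose and polyol symporters, was 1.36 lower at midday (SE 0.09, adjusted p 8.78e-14 in limma). cwINV6, which the annotation names a fructan exohydrolase, was 0.82 lower (SE 0.21, adjusted p 0.00099), and AT1G62660 did not pass, at -0.07.

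**Figure D3:**
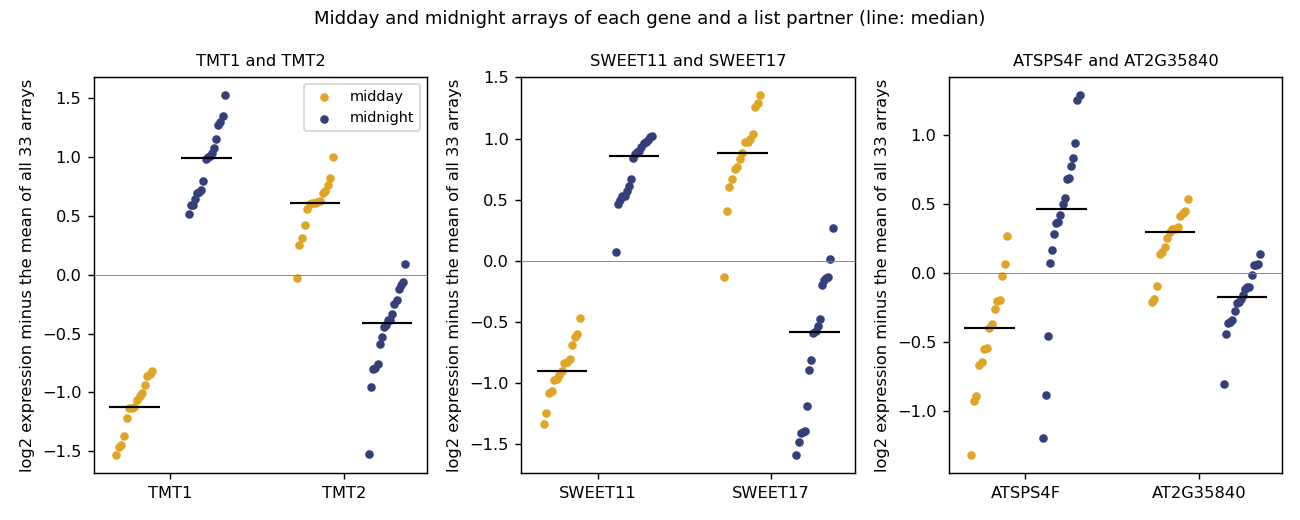
Log2 expression minus the mean over all 33 arrays (vertical axes) at midday and midnight for TMT1 beside TMT2, SWEET11 beside SWEET17, and ATSPS4F beside AT2G35840 of the sucrose synthesis list. Points are arrays, sorted by value within a time, and lines are medians. TMT1 and SWEET11 were higher at midnight, and TMT2 and SWEET17, at 1.03 and 1.58 higher at midday, ran the other way. The partners shown are examples that ran opposite to the gene beside them. On the same lists, SWEET4 and F2KP, at 0.75 and 0.55 lower at midday, ran with SWEET11 and ATSPS4F.

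For CO2, averaged over the 4 conditions, 6 of the 15 passed in limma, 2 higher and 4 lower at elevated CO2. Of all probe sets 21.3% passed, 8.46% higher and 12.9% lower. The median difference of the 15 was -0.12 and that of all probe sets -0.03. F2KP was lower by 0.38 (SE 0.09, adjusted p 0.00423 in limma), as ATSPS4F was lower, while AT2G35840 at -0.21 and AT5G42740 at -0.07 did not pass (0.0575 and 0.589). F2KP at ample nitrogen and midday read 2.70, 2.70, 2.40 and 2.49 at ambient CO2, and 2.21, 2.28 and 2.29 at elevated CO2. At midnight with ample nitrogen it read 2.98, 3.20, 3.61, 3.53 and 3.02 at ambient CO2, and 2.95, 2.60, 2.56, 2.99 and 2.41 at elevated CO2. At ample nitrogen the F2KP groups did not overlap at midday, as for 7.17% of the probe sets in that direction. At midnight they overlapped only through the highest elevated array, which exceeded the lowest ambient one. Neither difference passed in limma (adjusted p 0.771 at midday and 0.0970 at midnight). At limiting nitrogen the F2KP groups overlapped at both times.

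Of the vacuolar transporters, SFP1 was lower by 0.39 (SE 0.11) and SFP2 by 0.43 (SE 0.13) at elevated CO2, with adjusted p of 0.0129 and 0.0198 in limma, and TMT2 did not pass, at -0.12 (0.508). Of the SWEET genes, SWEET2, a vacuolar glucose transporter, was lower by 0.48 (SE 0.11, 1.39-fold, adjusted p 0.00331 in limma), and SWEET13 and SWEET17 were at -0.13 and 0.12. The genes higher at elevated CO2 were cwINV6 and AT5G61520. cwINV6 rose by 1.47 (SE 0.21, 2.76-fold, adjusted p 0.000251 in limma), at low levels that ran from -3.51 to 0.43 over the 33 arrays. Its rise was uneven among replicates, with group SDs of 0.60 to 1.06 at elevated CO2 and 0.23 to 0.32 at ambient CO2. AT5G61520 rose by 0.45 (SE 0.09, adjusted p 0.00194 in limma), by 0.84 over both nitrogen supplies at midday (adjusted p 0.00842), and was at 0.06 at midnight (0.777). The test of that difference between times gave 0.78, with an adjusted p of 0.440 in limma.

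For nitrogen, 0 of the 15 passed in the limma average, where 1.41% of all probe sets did, and 5 had an unadjusted p under 0.05, as did 13.6% of all probe sets. SWEET4 had the smallest adjusted p among them, at 0.0835 in limma, with a log2 difference of 0.60 (SE 0.18) toward limiting nitrogen.

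**Figure D4:**
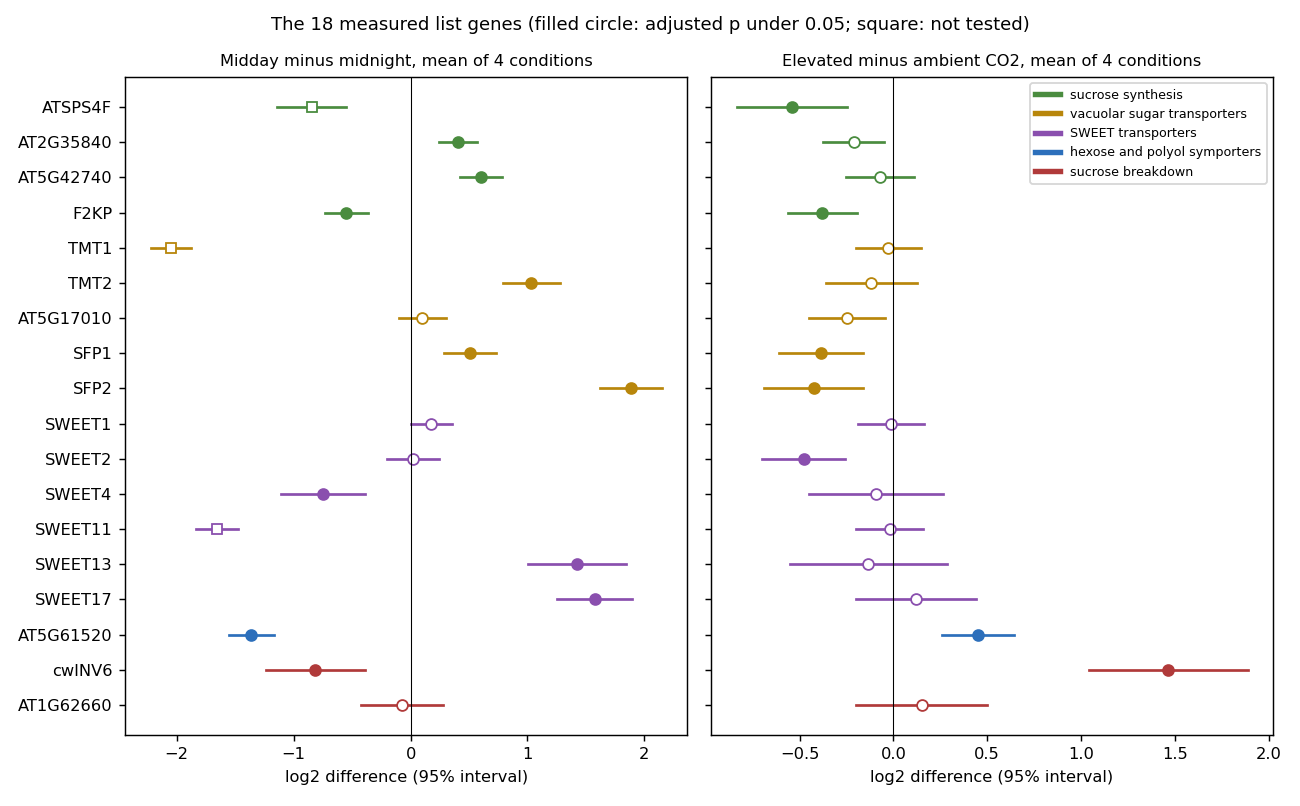
Log2 differences with 95% intervals (horizontal axes) of the 18 measured list genes, midday minus midnight (left) and elevated minus ambient CO2 (right), each averaged over 4 conditions and coloured by list. Filled circles have a limma adjusted p under 0.05, and squares mark the 3 genes whose time difference was not tested. cwINV6 at 1.47 lies farthest from 0 in the CO2 panel.

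The genes with the most similar group profiles were found by the root mean square distance between the 8 group means, after each gene was centred on its own mean. Nearest to TMT1 was SCPL49, a serine carboxypeptidase-like gene, at a distance of 0.0878 on the log2 scale, followed by AT5G60710, AT2G42040, AT4G17140 and CHL, a chloroplastic lipocalin, at 0.119 to 0.159, against a median of 1.05 over all genes. Nearest to SWEET11 was AT1G11960 at 0.137, followed by AT4G21870, AT5G16110, AT1G21830 and AT5G58120 at 0.156 to 0.174, against a median of 0.859. Nearest to ATSPS4F was AT4G24810 at 0.203, followed by AT1G78010, AT1G49740, AT5G12900 and AT3G13510 at 0.218 to 0.257, against a median of 0.603. The nearest genes of ATSPS4F thus lay farther from it than those of the other 2 genes did from theirs. All of these distances are over the same 8 groups of the same 33 arrays and describe likeness only.

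**Figure D5:**
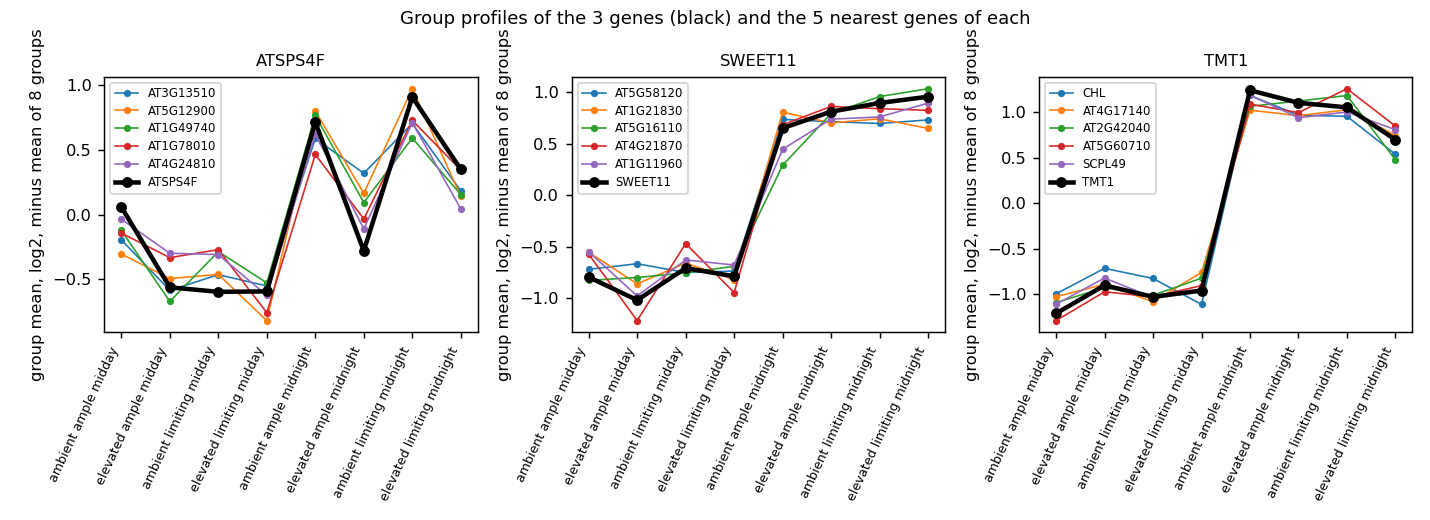
Group means on the log2 scale, each gene minus the mean of its own 8 group means (vertical axes), in the 8 groups (horizontal axes) for ATSPS4F, SWEET11 and TMT1 in black and the 5 nearest genes of each in colour. Lines join groups only to help follow a gene. The SWEET11 and TMT1 profiles step up between midday and midnight, and that of ATSPS4F also dips at elevated CO2 with ample nitrogen at midnight, where its group mean was 2.68.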

How the data were processed

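Leaf RNA of 33 samples was labelled with biotin by a 3′ IVT kit and hybridised to Affymetrix arrays, per the labels' protocols. The deposited values are log2 expression with a median of 0 in every column. How the authors summarised probes, corrected background or filtered probe sets is not given in the sources used here. The table holds 12826 probe sets, and the 54 controls among them were left out of the tests. The platform annotation gives a single gene for 6898 of the remaining 12772, several genes for 272 and no entry for 5602. Symbols were updated with a RefSeq table of assembly TAIR10.1, and for the 45 genes with several probe sets the one with the highest mean was used.

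All 33 arrays entered one limma fit (version 3.58.1, R 4.3.3) of 8 group means without a block. Adjustment was by Benjamini-Hochberg over all 12772 probe sets within each contrast, and an adjusted p under 0.05 was called. The procedure was checked on simulated data. Averages weight the 4 conditions equally. Tables were handled in Python 3.11.15 with pandas 2.3.3. The 3 genes, the lists and the averages were chosen with earlier results of these data known. Besides the 3 genes, the text names list genes that passed in the averaged CO2 or nitrogen contrast, up to 4 per list with the largest averaged time difference among those that passed, and the 5 nearest profiles of each gene. Other list genes are named to complete their list. Alternatives were quantile normalization, removal of the dimmest 30% of probe sets, the replicate number as a block, array weights, a moderated variance with trend and robust options, fits to fewer arrays, and each array left out in turn. Leaving out both arrays that stood apart was added after seeing the data. Sequences were not used here.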

Additional observations from a re-analysis of the deposited data

How the results depend on the processing

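Of 72 results, 55 held under all settings other than single arrays left out: direction and side of the threshold for tested values, within 1 SD for values without a test, within 1.5 times for counts. The averaged CO2 effect of ATSPS4F passed in all 33 fits without 1 array (-0.59 to -0.477, limma adjusted p 0.0057 to 0.0187). Fitted to one time, with fewer samples, it did not pass, at -0.308 with midday arrays alone (adjusted p 0.248) and -0.775 with midnight arrays alone (0.0523), and its midnight value was -0.571 (0.0872) without both arrays that stood apart. These values of ATSPS4F kept their direction, and the changes of direction were in values that passed under neither setting. With midday arrays alone the averaged CO2 effect on TMT1 was 0.19 and the averaged nitrogen effects were -0.343 for ATSPS4F and 0.062 for TMT1. With midnight arrays alone SWEET11 had 0.11 for CO2 and -0.098 for CO2 by nitrogen. Quantile normalization gave SWEET11 CO2 effects of 0.062 on average and 0.009 at limiting nitrogen and midday, and moved its time difference at elevated CO2 with limiting nitrogen from -1.741 to -2.006. Array weights gave SWEET11 -0.033 for CO2 at ample nitrogen and midnight, 0.016 for CO2 at limiting nitrogen and midday, and -0.025 for nitrogen at ambient CO2 and midday, and gave ATSPS4F 0.219 for nitrogen at elevated CO2 and midday. The cause of these changes was not tested. Of the 15 other list genes, removal of the dimmest 30% of probe sets left 1 higher for CO2, and 4 higher and 2 lower at midday, because TMT2, SFP2, SWEET13, SWEET4 and cwINV6 were then not tested. Midday arrays alone called 1 lower for CO2, and midnight arrays alone called 1 higher and 0 lower for CO2 and 1 lower for nitrogen. Replicate numbers were not used as pairs in the main fit. Deviations from the group means correlated over 0.1 in 28 of 106 same-numbered pairs (median 0.013, range -0.457 to 0.446). They did so in 74 of 369 other-numbered pairs (median -0.001, range -0.486 to 0.542). These values do not show a pairing and cannot exclude one. The replicate block turned the averaged nitrogen effect on ATSPS4F to -0.02, called 1 list gene lower for nitrogen and changed no other call for the 3 genes. Leaving out 1 array at a time, ATSPS4F ranged from -0.118 to 0.234 for CO2 at limiting nitrogen and midday, from -0.2 to 0.2 for nitrogen at elevated CO2 and midday, and from -0.021 to 0.098 for averaged nitrogen. SWEET11 ranged from -0.052 to 0.01 for averaged CO2, from -0.177 to 0.026 and from -0.02 to 0.15 for CO2 at limiting nitrogen at midday and midnight, from -0.038 to 0.185 for nitrogen at ambient CO2 and midday, from -0.037 to 0.085 for CO2 by nitrogen, and from -0.098 to 0.027 for nitrogen by time. TMT1 ranged from -0.061 to 0.004 for averaged CO2, from -0.043 to 0.201 for CO2 at limiting nitrogen and midday, and from -0.137 to 0.073 for nitrogen at elevated CO2 and midday. List genes called higher for nitrogen numbered 0 to 1 (1 without replicate 1 of ambient CO2, ample nitrogen and midnight, or replicate 3 of that condition at midday), and those lower for CO2 numbered 3 to 6.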
